A study of Mus musculus with 6 samples.

Results

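The enzymes that write, maintain and remove DNA methylation, together with the core of Polycomb repressive complex 2 (PRC2), were followed in a mouse keratinocyte line with and without the α3 integrin subunit. The set held 10 genes, Dnmt1, Dnmt3a, Dnmt3b, Uhrf1, Tet1, Tet2, Tet3, Ezh1, Ezh2 and Suz12, taken by their GENCODE M21 symbol from the 49315 genes of the deposited count table, and each symbol matched 1 row. The 3A group (3 libraries) was MK-546-ha3A, the α3-deficient line into which human α3 had been put back. The Control group (3 libraries) was MK-546, the α3-deficient line itself. Both lines are immortalized mouse keratinocytes derived from skin, grown untreated in low-calcium medium on collagen at 33 °C and 8% CO2 and collected at 50 to 80% confluence. Each group was 1 cell line, so the presence of α3 and the descent of the line cannot be told apart, and no label says that the replicates were separate cultures, so the p-values reflect variation among libraries that may only be technical.

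DNA methylation in mammals is carried on cytosines of CpG pairs. DNMT3A and DNMT3B place it on unmethylated DNA, while DNMT1 copies it onto the new strand after replication, guided there by UHRF1, which recognises hemimethylated CpG. TET1, TET2 and TET3 are dioxygenases that oxidise methylcytosine and open the way to its removal, using α-ketoglutarate as a co-substrate. PRC2 silences genes by another route: its catalytic subunit, EZH2 or the less active EZH1, methylates lysine 27 of histone H3, and SUZ12 and EED hold the complex together. In the epidermis DNMT1, UHRF1 and EZH2 are known for keeping basal progenitor cells proliferating and undifferentiated.

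Levels are given in counts per 1000000 (CPM) on library sizes scaled by the trimmed mean of M-values (TMM), and a gene was called when its Benjamini-Hochberg adjusted p from edgeR's quasi-likelihood test was under 0.05 over the 13704 genes tested. Total counts per library were 25634204 to 36245240. One library stood apart: Control 1 correlated across genes with Control 2 and Control 3 at r = 0.957 and 0.953, against 0.988 between Control 2 and Control 3, and with the 3A libraries at 0.946 to 0.955. Within 3A, the library 3A 1 correlated with 3A 2 and 3A 3 at 0.985 and 0.982, against 0.994 between 3A 2 and 3A 3. Mouse Itga3, the gene of α3, had 80.4, 70.2 and 57.5 CPM in 3A and 31.9, 41.7 and 45.1 CPM in Control; gene counts do not show whether these reads come from outside the deleted part or, in 3A, from the human sequence, so they do not check the labels. The share of counts on mitochondrially encoded genes was 1.24 to 1.59% in 3A, 1.17% in Control 1, and 4.19% and 4.73% in Control 2 and Control 3. The 11 keratinocyte markers summed to 7517 to 9423 CPM in 3A and 10170 to 11690 CPM in Control. By edgeR 0 of them were called higher and 3 lower, against 7.52% and 7.39% of all tested genes. The 3 were Krt15 (log2 fold change -4.184, edgeR adjusted p = 0.00317), Perp (-0.785, edgeR adjusted p = 0.0247) and Trp63 (-0.615, edgeR adjusted p = 0.0491). Krt15 was low in both groups, with 304 counts in Control and 21 in 3A. With 12, 7 and 2 counts in 3A 1, 2 and 3, it passed the low-count filter that set the tested genes through its Control libraries. Markers of other skin cell types were low: fibroblast markers summed to at most 3.40 CPM in 3A and 3.36 CPM in Control, melanocyte markers to at most 0.780 and 1.71 CPM, endothelial markers to at most 0.946 and 0.467 CPM, and immune markers to at most 14.6 and 23.1 CPM. Pmel, the only melanocyte marker tested, was called lower in 3A (log2 fold change -1.046, edgeR adjusted p = 0.0436). The 4 Merkel cell markers, which include Sox2, summed to 7.18 to 10.1 CPM in 3A and 28.1 to 54.8 CPM in Control.

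None of the 10 genes was called. The 4 genes Dnmt1, Uhrf1, Dnmt3b and Ezh2 had all 3 libraries of 3A above all 3 of Control, Tet2 had all 3 below, and Dnmt3a, Tet3, Ezh1 and Suz12 had overlapping groups. Tet1 did not pass the low-count filter. Over all tested genes edgeR called 14.9% (7.52% higher and 7.39% lower in 3A), and the groups did not overlap for 36.1%, against 5 of the 9 tested genes here. At an unadjusted p under 0.05 there were 5 of the 9, against 34.0% of all tested genes. DESeq2 called 4 of the 9, against 26.0% of all genes that it gave an adjusted p, and limma-voom called none.

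**Figure D1:**
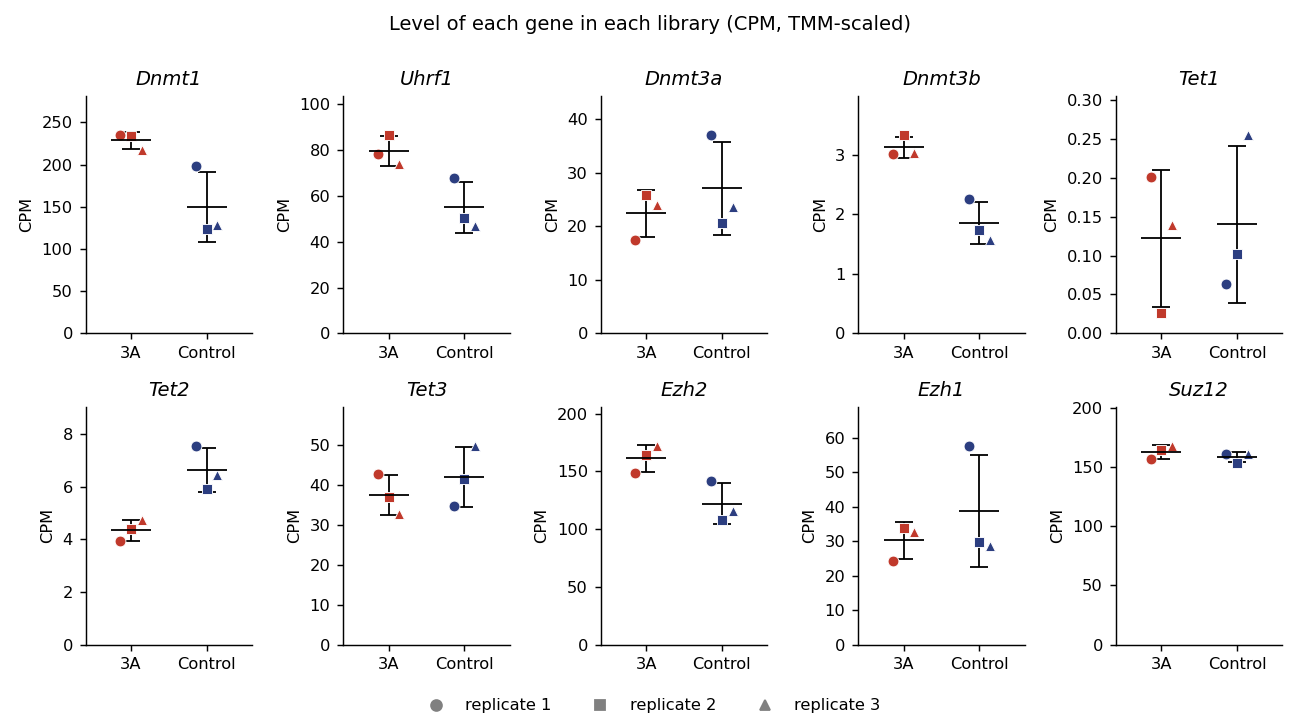
CPM of each gene (y axis, from 0, one scale per gene) in the 3A and Control libraries; points are libraries, the long dash is the mean and the bars are 1 SD (n = 3 each). Dnmt1, Uhrf1, Dnmt3b and Ezh2 lie higher in every 3A library than in every Control library and Tet2 lower, and Control 1 (circle) is the highest Control library for these 5 genes and for Dnmt3a and Ezh1.

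Dnmt1, the maintenance methyltransferase (chromosome 9, 20907209 to 20959888, minus strand, GRCm38), had 235, 234 and 217 CPM in 3A 1, 2 and 3, against 198, 124 and 128 CPM in Control 1, 2 and 3. The groups did not overlap, but Control 1 lay closer to the lowest 3A library than to the other Control libraries. The means were 229 ± 9.94 CPM in 3A and 150 ± 41.5 CPM in Control (SD, n = 3 each), a log2 fold change of 0.61 (SE 0.21, 95% interval 0.12 to 1.10) that did not pass edgeR's test (adjusted p = 0.0926). Without Control 1 it was 0.87 and passed (edgeR adjusted p = 0.00152), and with any other library left out it was 0.48 to 0.65 and did not (edgeR adjusted p from 0.159 to 0.287). DESeq2 called it (adjusted p = 0.0403).

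Uhrf1, whose product brings DNMT1 to replicated DNA (chromosome 17, 56303321 to 56323486, plus strand), likewise had Control 1 between the 3A libraries and the other Control libraries. It had 78.3, 86.5 and 74.0 CPM in 3A 1, 2 and 3, against 67.6, 50.5 and 47.0 CPM in Control 1, 2 and 3. The means were 79.6 ± 6.37 CPM in 3A and 55.0 ± 11.0 CPM in Control (SD, n = 3 each), with a log2 fold change of 0.53 (SE 0.18, 95% interval 0.11 to 0.96, edgeR adjusted p = 0.0896). It passed without Control 1 (0.72, edgeR adjusted p = 0.00430) and by DESeq2 (adjusted p = 0.0377), and missed the threshold with any other library left out (edgeR adjusted p from 0.141 to 0.294). Usp7, a deubiquitinase that stabilises UHRF1 and DNMT1, had 183, 178 and 175 CPM in 3A and 156, 112 and 112 CPM in Control, again without overlap and not called (log2 fold change 0.49, edgeR adjusted p = 0.0986). Uhrf2, the paralog of Uhrf1, overlapped between the groups, at 29.3 to 40.6 CPM in 3A and 29.0 to 58.8 CPM in Control, with its highest value in Control 1.

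Of the de novo enzymes, Dnmt3b had separated groups and Dnmt3a overlapping ones. Dnmt3b (chromosome 2, 153649450 to 153687730, plus strand) was scarce, with 105, 125 and 109 counts in 3A 1, 2 and 3 and 71, 51 and 37 counts in Control 1, 2 and 3. In CPM these were 3.01, 3.33 and 3.04 in 3A, against 2.25, 1.74 and 1.57 in Control. Every 3A library was higher, and the log2 fold change of 0.75 (SE 0.24, 95% interval 0.18 to 1.31) was the largest positive one among the 9 tested genes, yet it was not called (edgeR adjusted p = 0.0787). It passed without Control 1 (0.92, edgeR adjusted p = 0.0152) and by DESeq2 (adjusted p = 0.0289). Dnmt3a (chromosome 12, 3806007 to 3914443, plus strand) had 17.5, 25.8 and 24.0 CPM in 3A, against 37.0, 20.6 and 23.5 CPM in Control. Control 1 was the highest of the 6 libraries and 3A 1 the lowest, while the other 4 lay between 20.6 and 25.8 CPM. Its log2 fold change of -0.27 (95% interval -0.89 to 0.35, edgeR adjusted p = 0.485) turned to 0.04 without Control 1. Dnmt3l, a catalytically inactive helper of the de novo enzymes in germ cells, had at most 0.0533 CPM in 3A and 0.127 CPM in Control.

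Among the TET dioxygenases, only traces of Tet1 were counted: 7, 1 and 5 counts in 3A 1, 2 and 3 and 2, 3 and 6 counts in Control 1, 2 and 3, which were below the filter. Tet2 (chromosome 3, 133463679 to 133545139, minus strand) had 3.93, 4.40 and 4.73 CPM in 3A, against 7.55, 5.91 and 6.45 CPM in Control. It was the one member whose 3A libraries all lay below the Control libraries. Its means were 4.35 ± 0.406 CPM in 3A and 6.64 ± 0.832 CPM in Control (SD, n = 3 each), and the log2 fold change was -0.61 (SE 0.19, 95% interval -1.07 to -0.15, edgeR adjusted p = 0.0778). Unlike the maintenance genes, Tet2 moved toward 0 without Control 1 (-0.49, edgeR adjusted p = 0.0604). DESeq2 called it lower (adjusted p = 0.0213), as did edgeR with the mitochondrial share as a covariate (-0.77, adjusted p = 0.0348). The covariate fit rests largely on Control 1, the one Control library with a share close to that of 3A. Tet3 (chromosome 6, 83362373 to 83459084, minus strand), with the highest level of the 3, had 42.9, 37.2 and 32.8 CPM in 3A and 34.7, 41.5 and 49.8 CPM in Control. Its groups overlapped throughout (log2 fold change -0.16, 95% interval -0.60 to 0.28, edgeR adjusted p = 0.568).

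In PRC2 the groups were separated for Ezh2 and overlapped for its paralog Ezh1. Ezh2 (chromosome 6, 47530139 to 47595341, minus strand) had 148, 164 and 172 CPM in 3A 1, 2 and 3, against 142, 108 and 116 CPM in Control 1, 2 and 3. The groups were apart, though 3A 1 and Control 1 were only a few CPM from each other. The log2 fold change was 0.40 (SE 0.16, 95% interval 0.03 to 0.78, edgeR adjusted p = 0.125), and it passed edgeR's test without Control 1 (0.54, adjusted p = 0.0109) but not by DESeq2 with 6 libraries (adjusted p = 0.0724). Ezh1 (chromosome 11, 101191115 to 101226463, minus strand) had 24.1, 33.8 and 32.7 CPM in 3A, against 57.5, 29.8 and 28.7 CPM in Control. A single value, that of Control 1, set the direction of its fold change: it was -0.36 with 6 libraries (95% interval -1.07 to 0.35, edgeR adjusted p = 0.421) and 0.06 without Control 1 (edgeR adjusted p = 0.801). With the mitochondrial share as a covariate, a fit that rests largely on Control 1, it was -0.88 and called lower (edgeR adjusted p = 0.0114).

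Suz12, the scaffold of PRC2 (chromosome 11, 79993106 to 80034123, plus strand), varied least. It had 157, 165 and 168 CPM in 3A and 161, 154 and 161 CPM in Control, so that the libraries of both groups lay within the same narrow band. The means were 163 ± 5.69 CPM in 3A and 159 ± 4.13 CPM in Control (SD, n = 3 each), with a log2 fold change of 0.04 (95% interval -0.26 to 0.34, edgeR adjusted p = 0.846). Eed, which encodes a further core subunit that reads methylated lysine 27, spread more widely, with 65.2, 81.5 and 88.7 CPM in 3A and 72.1, 28.6 and 20.4 CPM in Control. Control 1 lay inside the 3A range, far above the other Control libraries. The Eed log2 fold change was 0.96 with 6 libraries (SE 0.45, edgeR adjusted p = 0.175) and 1.69 without Control 1 (edgeR adjusted p = 0.000892).

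**Figure D2:**
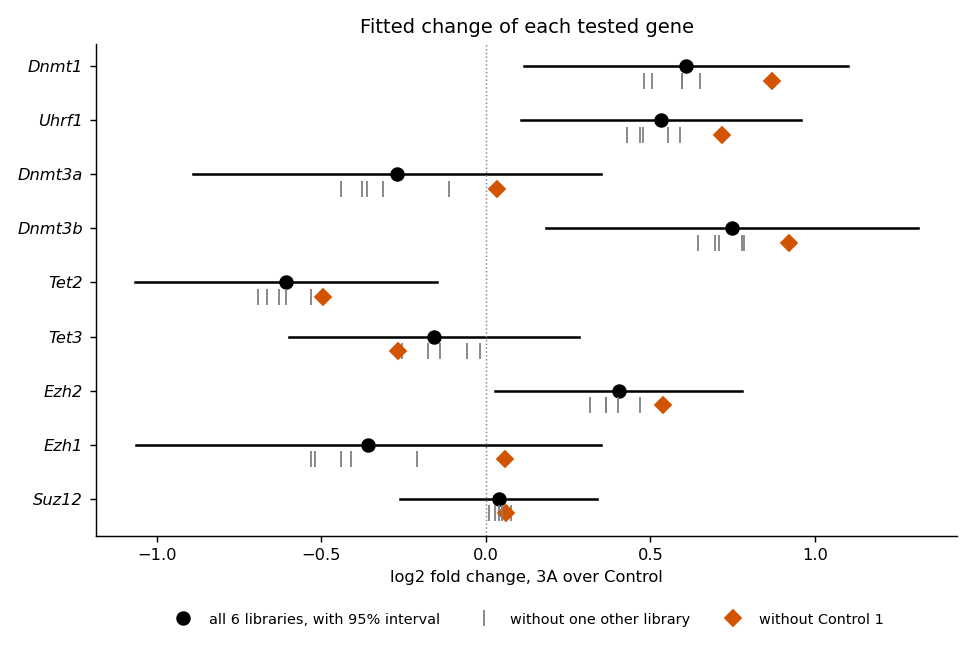
Log2 fold change of 3A over Control (x axis) for the 9 tested genes (y axis): black points and lines are the fit to all 6 libraries with its 95% interval, orange diamonds the fit without Control 1 and grey ticks the fits without one other library. Dnmt1, Uhrf1, Dnmt3b and Ezh2 stay to the right of 0 and Tet2 to the left in every fit drawn, whereas Dnmt3a and Ezh1 cross 0 without Control 1.

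Leaving out Control 1 gave the most calls. Without it edgeR called Dnmt1, Uhrf1, Dnmt3b and Ezh2, all higher, which were 4 of the 9 tested genes here, against 52.0% of all genes tested in that fit. That share counts both directions: of the 14300 genes tested there, 3751 were called higher and 3690 lower. When any other library was left out none of the 9 was called. The Control 1 level was above both Control 2 and Control 3 for 7 of the 9 genes. For 4 of these it stayed below every 3A library (Dnmt1, Uhrf1, Dnmt3b and Ezh2), and for the other 3 it exceeded them all (Dnmt3a, Tet2 and Ezh1). The mitochondrial share of Control 1 (1.17%) was close to that of 3A, unlike those of Control 2 (4.19%) and Control 3 (4.73%). A fit with this share as a covariate therefore compares 3A largely with Control 1 alone. Once that share entered the model, fitted log2 differences were 0.27 for Dnmt1, 0.26 for Uhrf1, 0.49 for Dnmt3b and 0.21 for Ezh2, none of them called (edgeR adjusted p from 0.215 to 0.344), while Dnmt3a was at -0.68 (edgeR adjusted p = 0.0534), and Ezh1 and Tet2 were called lower, as given above.

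To compare the genes with each other, CPM was divided by the merged exon length in kilobases. On this scale Suz12 and Dnmt1 had the highest levels in 3A, at 33.0 ± 1.15 and 31.0 ± 1.35 CPM per kb (SD, n = 3), with overlapping ranges. Ezh2 followed at 24.1 ± 1.78 CPM per kb, then Uhrf1 at 18.7 ± 1.50, each apart from its neighbours. The other genes had lower levels, with Ezh1 at 4.06 ± 0.712, Tet3 at 2.25 ± 0.302, Dnmt3a at 1.35 ± 0.262, Dnmt3b at 0.612 ± 0.0350, Tet2 at 0.258 ± 0.0241 and Tet1 at 0.00790 ± 0.00571 CPM per kb in 3A. Control kept nearly this order, from Suz12 at 32.1 ± 0.836 and Dnmt1 at 20.4 ± 5.63 CPM per kb down to Tet1 at 0.00907 ± 0.00654. There, however, Suz12 was apart from Dnmt1, the ranges of Dnmt1 and Ezh2 overlapped, as did those of Tet3 and Dnmt3a, and Tet2 (0.393 ± 0.0493) and Dnmt3b (0.363 ± 0.0692) could not be ordered. The merged length counts exons of every annotated isoform, so genes with long rarely used exons are placed too low.

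Ratios of these levels within a library do not depend on how libraries are scaled. The Ezh2 to Ezh1 ratio was 6.84, 5.40 and 5.84 in 3A 1, 2 and 3, against 2.75, 4.03 and 4.48 in Control 1, 2 and 3. The Dnmt3a to Dnmt3b ratio was 1.79, 2.38 and 2.42 in 3A, against 5.04, 3.63 and 4.59 in Control. Both ratios separated the groups, and Control 1 was the library farthest from 3A in each. The Ezh2 to Suz12 ratio was higher in 3A as well, at 0.701 to 0.758, against 0.520 to 0.653 in Control. For each of these 3 ratios an exact two-sided permutation test over the 6 libraries gave p = 0.1, the smallest that 3 against 3 allows, or 0.167 adjusted over the 5 ratios computed. The Dnmt1 to Uhrf1 ratio overlapped between the groups, at 1.56 to 1.73 in 3A and 1.42 to 1.69 in Control (exact permutation p = 0.4), and so did that of Tet2 to Tet3, at 0.0906 to 0.143 in 3A and 0.128 to 0.215 in Control (exact permutation p = 0.3).

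**Figure D3:**
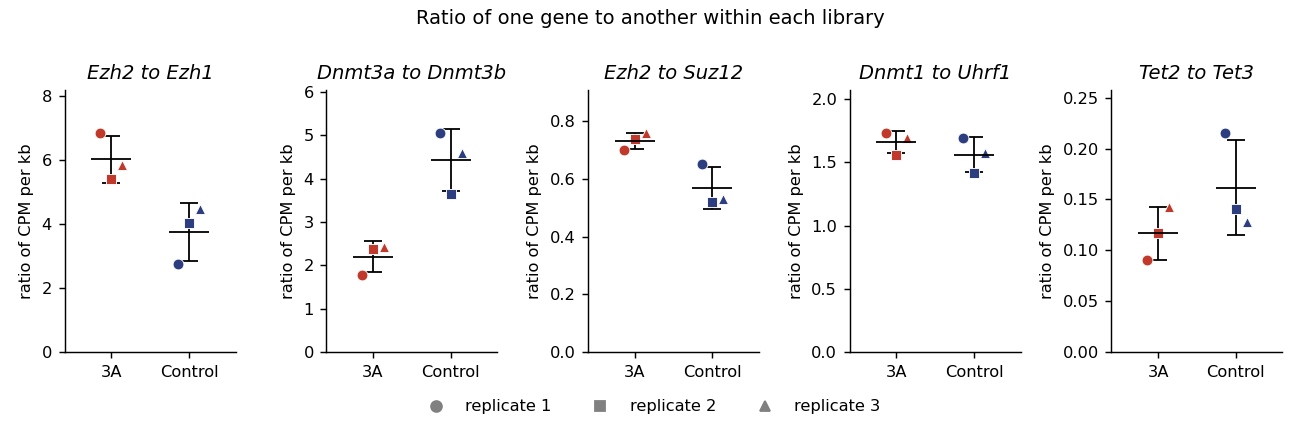
Ratio of one gene's CPM per kb to another's (y axis, from 0) in each library of 3A and Control, with the mean (long dash) and 1 SD (n = 3 each). Ezh2 to Ezh1 and Ezh2 to Suz12 are higher and Dnmt3a to Dnmt3b lower in all 3A libraries, while Dnmt1 to Uhrf1 and Tet2 to Tet3 overlap.

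Genes that supply, read or assist DNA methylation were counted next, from a list of 24 of which 23 were tested. Here 3 were called higher and 1 lower, against 7.52% and 7.39% of all tested genes. The median log2 fold change was 0.10 over the list, against -0.02 over all tested genes. Mat2a, which makes the methyl donor S-adenosylmethionine, had 175, 219 and 207 CPM in 3A and 92.9, 61.6 and 47.7 CPM in Control, and rose by 1.57 on the log2 scale (SE 0.26, edgeR adjusted p = 0.00909). It was lost without 3A 3 (edgeR adjusted p = 0.0518) and called with any other library left out. Idh2, a mitochondrial source of α-ketoglutarate, had 66.7, 57.2 and 58.3 CPM in 3A and 37.2, 43.1 and 42.0 CPM in Control (log2 fold change 0.58, edgeR adjusted p = 0.0394).

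Zfp57, a zinc finger protein that protects methylation at imprinted control regions, was low but separated the groups, at 5.07, 2.80 and 3.40 CPM in 3A and 0.285, 0.854 and 1.10 CPM in Control (log2 fold change 2.34, SE 0.50, edgeR adjusted p = 0.0221). With only 9 reads on it in Control 1, Zfp57 cleared the low-count filter through the 3A libraries, the group where it was higher. Idh2 and Zfp57 also passed edgeR's test without Control 1. Idh2 failed when any other library was left out (edgeR adjusted p from 0.0874 to 0.139), and Zfp57 then passed only without Control 3.

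**Figure D4:**
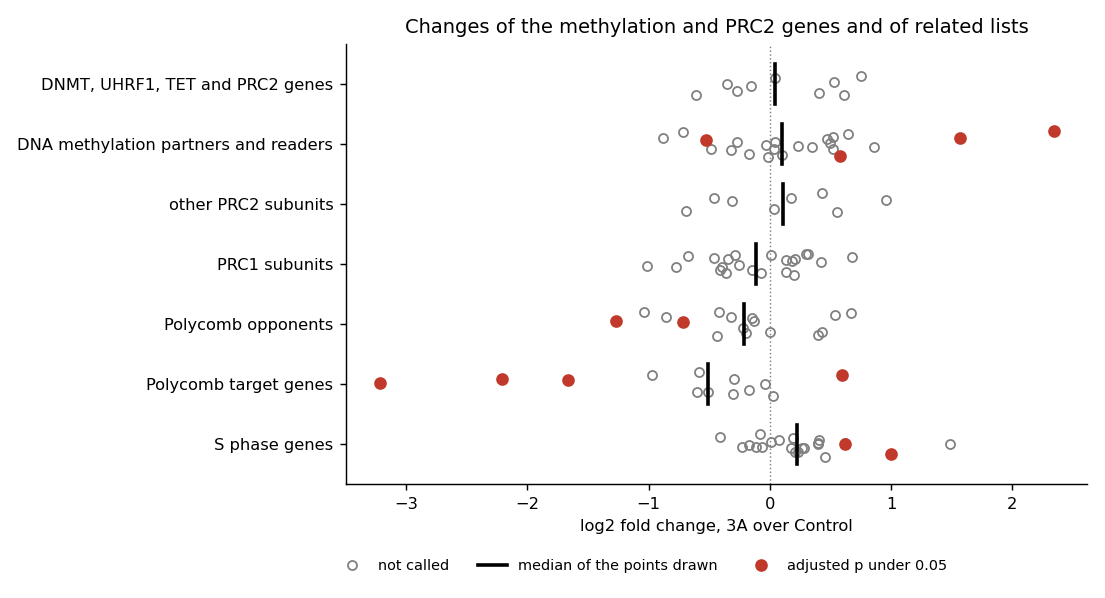
Log2 fold change of 3A over Control (x axis) for the tested genes of each list (y axis); filled points passed edgeR's test, open points did not, and the bar is the median of the points drawn. Cdkn1c, a called Polycomb target with 0 counts in 3A, has no finite ratio and is left out of the drawing; no point is filled among the methylation and PRC2 genes.

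Other Polycomb subunits were not called either: 0 of 8 tested among the remaining PRC2 subunits (median log2 fold change 0.11) and 0 of 22 among PRC1 subunits (-0.11) by edgeR with 6 libraries, and none by limma-voom. Over all tested genes edgeR called 14.9%. At an unadjusted p under 0.05 there were 2 of 8 and 4 of 22, against 34.0% of all tested genes. Without Control 1 edgeR called 5 of the PRC2 subunits (3 higher, 2 lower) and 10 of the PRC1 subunits (5 higher, 5 lower), against 52.0% of all genes in that fit. DESeq2 called 2 lower among the PRC1 subunits, and 1 higher and 1 lower among those of PRC2. Of all genes that it gave an adjusted p, it called 26.0%. Among the remaining PRC2 subunits, 1 had every 3A library above Control and 1 every 3A library below. Rbbp4, a histone-binding subunit, was the higher one, with 332, 360 and 393 CPM in 3A and 299, 257 and 250 CPM in Control (log2 fold change 0.43, edgeR adjusted p = 0.0965). Epop was the lower one, with 24.4, 18.6 and 13.4 CPM in 3A and 26.8, 30.3 and 33.6 CPM in Control (log2 fold change -0.69, edgeR adjusted p = 0.0912). Bmi1, the PRC1 subunit known for sustaining progenitor cells, overlapped, at 67.4 to 87.1 CPM in 3A and 56.6 to 89.9 CPM in Control.

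Of the genes that oppose Polycomb, 16 of 17 were tested, and 2 were called lower and 0 higher. Counting both directions, the share called was below the 14.9% over all tested genes. By direction, edgeR called 7.39% of all tested genes lower and 7.52% higher. Kdm6b, a demethylase that removes the PRC2 mark, had 43.3, 43.5 and 31.1 CPM in 3A, against 61.1, 60.6 and 72.0 CPM in Control (log2 fold change -0.72, SE 0.18, edgeR adjusted p = 0.0412). Its relative Kdm6a overlapped, at 15.8 to 26.2 CPM in 3A and 17.2 to 40.5 CPM in Control, with the highest value in Control 1. Kmt2c, a methyltransferase acting on lysine 4 of histone H3, had 6.82, 8.53 and 7.52 CPM in 3A, against 13.9, 17.7 and 23.8 CPM in Control (log2 fold change -1.27, SE 0.23, edgeR adjusted p = 0.0135). Both passed without Control 1. Kdm6b failed when any other library was left out (edgeR adjusted p from 0.0737 to 0.144), and Kmt2c failed without 3A 1, 3A 2 or 3A 3 (edgeR adjusted p up to 0.0726).

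Known targets of PRC2 were followed in a list of 22, of which 14 passed the filter, with 1 called higher and 4 lower. Over all tested genes 7.52% were called higher and 7.39% lower. Cdkn1c, an imprinted cell cycle inhibitor, passed the filter only through Control. It had 0 counts in all 3 libraries of 3A and 7.89, 14.9 and 14.5 CPM in Control (edgeR adjusted p = 0.00102). Against a floor of 3 counts over the 3A group (0.0277 CPM) it was at least 449-fold lower. Sox2, a progenitor transcription factor, fell to 4.13, 5.06 and 2.98 CPM in 3A, against 23.8, 41.9 and 47.9 CPM in Control (log2 fold change -3.22, SE 0.33, edgeR adjusted p = 0.00149). Sox2 is also a Merkel cell marker; of the other 3 markers of that cell type, Atoh1 had 0 counts in every library of both groups, Krt20 had 0.668 to 1.43 CPM in 3A and 0.615 to 0.919 CPM in Control, and Isl1 had 3.38, 4.18 and 3.54 CPM in 3A and 3.39, 6.05 and 5.94 CPM in Control. Isl1 was not called with 6 libraries (log2 fold change -0.47, edgeR adjusted p = 0.263) and was lower without Control 1 (-0.68, edgeR adjusted p = 0.0223). The part of this cell type in the Sox2 result was not tested. Gata4 and Foxc1, developmental transcription factors, fell by 2.21 and 1.67 on the log2 scale (edgeR adjusted p = 0.00613 and adjusted p = 0.0108).

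Of the Ink4 genes at the locus that PRC2 silences in proliferating cells, Cdkn2b passed the test and Cdkn2a did not. Cdkn2b rose, with 72.1, 64.0 and 62.3 CPM in 3A and 44.3, 44.9 and 42.3 CPM in Control (log2 fold change 0.59, SE 0.14, edgeR adjusted p = 0.0295). Cdkn2a had 218, 134 and 129 CPM in 3A and 129, 270 and 329 CPM in Control, with overlapping groups (log2 fold change -0.60, edgeR adjusted p = 0.282), and the gene count does not separate its p16 and p19 transcripts. Over the list the median log2 fold change came to -0.55. Cdkn1c was the lowest value both as fitted and at its bound, so its placing could not move this median. Leaving out single libraries kept Cdkn1c, Sox2 and Gata4 called in every fit. Cdkn2b passed without Control 1 but with no other library left out (edgeR adjusted p from 0.0716 to 0.132), and Foxc1 failed without 3A 2 or 3A 3 (edgeR adjusted p up to 0.0598).

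Germline genes held silent by promoter methylation in somatic cells were mostly at or near 0. Of 22 listed, 6 had 0 counts in every library and 2 passed the filter. Both of these were called higher, as were 7.52% of all tested genes. Rhox5, an X-linked homeobox gene, had 16.2, 10.7 and 12.0 CPM in 3A and 0.602, 1.85 and 1.66 CPM in Control (log2 fold change 3.25, SE 0.42, edgeR adjusted p = 0.00377), and it passed with any single library left out. Tdrkh, which encodes a Tudor protein of the piRNA pathway, had 3.61, 2.48 and 2.17 CPM in 3A and 0.983, 1.50 and 0.977 CPM in Control (log2 fold change 1.25, edgeR adjusted p = 0.0435), and it passed without Control 1 but with no other library left out.

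**Figure D5:**
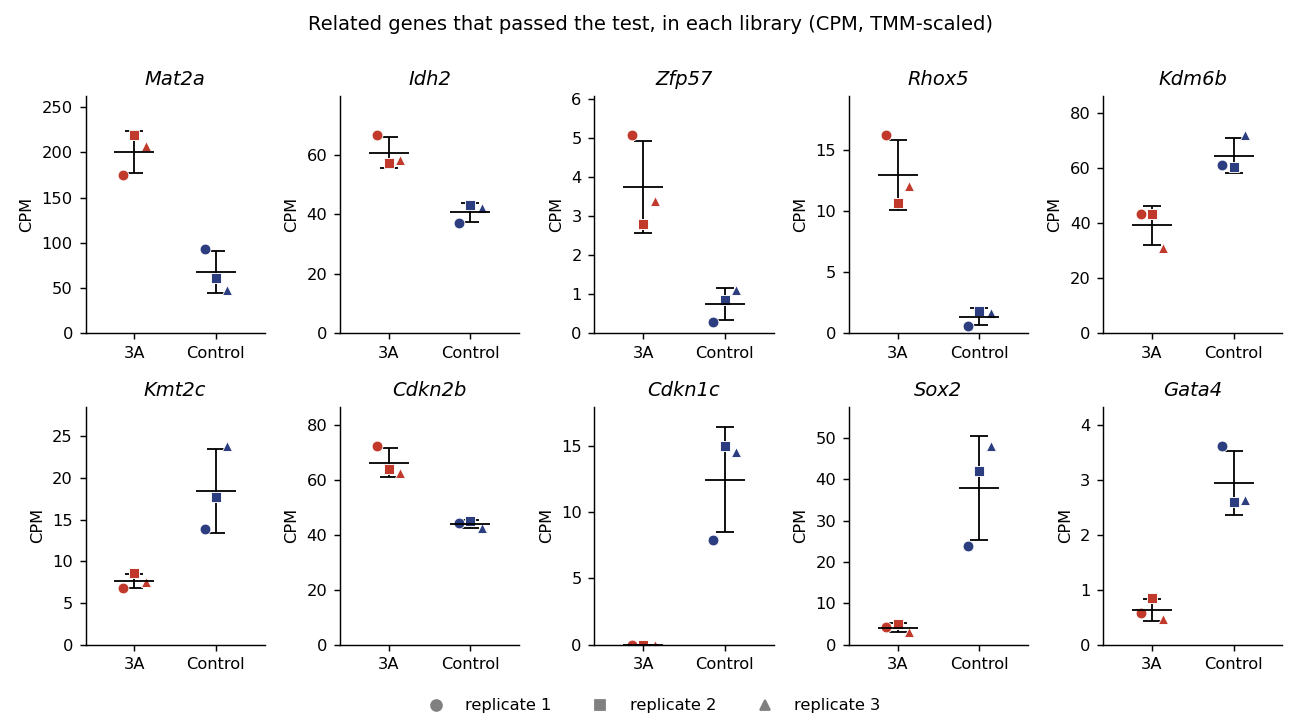
CPM (y axis, from 0, one scale per gene) of 10 related genes that passed edgeR's test, in each library of 3A and Control, with the mean (long dash) and 1 SD (n = 3 each). Mat2a, Idh2, Zfp57, Rhox5 and Cdkn2b are higher in every 3A library, and Kdm6b, Kmt2c, Cdkn1c, Sox2 and Gata4 are lower.

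Dnmt1, Uhrf1 and Ezh2 are transcribed mainly in dividing cells, so genes of DNA synthesis were set beside them. All 22 S phase genes listed were tested, and 2 rose and 0 fell, with a median log2 fold change of 0.22. Counting both directions, the share called was below the 14.9% over all genes. By direction, edgeR called 7.52% of all tested genes higher and 7.39% lower. Rrm2, which encodes the regulated subunit of ribonucleotide reductase, had 346, 376 and 340 CPM in 3A and 191, 173 and 169 CPM in Control (log2 fold change 1.00, SE 0.14, edgeR adjusted p = 0.00475). Rrm1, its partner subunit, had 319, 326 and 318 CPM in 3A and 247, 197 and 181 CPM in Control (log2 fold change 0.62, SE 0.16, edgeR adjusted p = 0.0441). Averaged over the list, log2 CPM was 6.85, 6.86 and 6.81 in 3A 1, 2 and 3 and 6.60, 6.54 and 6.54 in Control 1, 2 and 3. This mean was higher in every 3A library than in every Control library, as were Dnmt1, Uhrf1 and Ezh2. Control 1 lay close to the other Control libraries in this mean, whereas it lay well above them in Dnmt1, Uhrf1 and Ezh2. The part of the S phase genes in those levels was not tested. Without Control 1, 10 S phase genes were higher and 1 lower. In that fit edgeR called 52.0% of the 14300 genes tested, 3751 higher and 3690 lower.

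Promoter sequence was examined for the binding word of E2F factors, which switch on replication genes at the entry to S phase. The words TTTCCCGC, TTTCGCGC, TTTGGCGC and TTTGCCGC were searched on both strands in RefSeq windows of 300 bases (GRCm38.p6, 250 before to 50 after each start), a choice made after the levels were seen. Of the 10 genes, 4 had a word in a window, namely Dnmt1, Uhrf1, Ezh2 and Suz12, against 2.60% of the 27025 genes with a window and 2.26% of the 32851 windows. In the S phase list 7 of 18 genes with a window had one. The stretches are shown because Dnmt1, Uhrf1 and Ezh2 are among the 4 genes with every 3A library above Control. The other of these, Dnmt3b, has no word, and Suz12 has the word and overlapping groups. Whether the word bears on the levels was not tested. Capitals mark the word, in the direction of the gene's strand, and GCGCGAAA is TTTCGCGC read on the other strand.

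The stretches were chr9:20952784-20952873 (minus strand, word 219 bases before the third annotated Dnmt1 start), chr9:20952574-20952601 (minus strand, word from base 34 after that start), chr17:56304092-56304181 (plus strand, 185 bases before the second Uhrf1 start), chr6:47595012-47595101 (minus strand, word from base 4 of Ezh2) and chr11:79992856-79992945 (plus strand, 219 bases before the Suz12 start).
Dnmt1 upstream: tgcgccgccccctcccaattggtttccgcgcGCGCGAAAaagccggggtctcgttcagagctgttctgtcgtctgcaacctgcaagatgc
Dnmt1 downstream: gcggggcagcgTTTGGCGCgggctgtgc
Uhrf1: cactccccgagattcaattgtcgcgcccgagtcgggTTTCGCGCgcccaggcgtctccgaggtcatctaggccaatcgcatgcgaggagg
Ezh2: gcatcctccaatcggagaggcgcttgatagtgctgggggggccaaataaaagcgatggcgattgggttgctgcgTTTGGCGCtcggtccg
Suz12: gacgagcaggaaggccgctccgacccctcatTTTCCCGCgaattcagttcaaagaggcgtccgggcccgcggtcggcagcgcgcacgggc

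A match is a run of letters and not a site shown to be bound, and the windows of Dnmt3a, Dnmt3b, Tet1, Tet2, Tet3 and Ezh1 had none of these letters. The windows of the 10 genes held 2 to 57 CpG pairs, against a median of 7 over all windows, with the highest number at Tet2 and the lowest at the first of the 3 Dnmt1 starts. Each word itself holds a CpG pair, and the 4 windows with a word held 31 to 41. The shares given for all genes and windows were not matched for CpG content or for expression. Gene counts do not show which start was used.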

How the data were processed

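RNA of 6 libraries was sequenced, 3 from 3A and 3 from Control cells. The authors deposited 1 table of raw counts per gene with no normalization. The submitters' processing notes name featureCounts, Trim Galore, limma and edgeR without versions, and the builds hg38, mm10 and GRCh38 without roles. No aligner, annotation release or strandedness is given in the sources used here. Of 49315 gene IDs, 49056 matched GENCODE M21, and the rest held at most 0.0123% of a library's counts. Total counts were 25634204 to 36245240, and counting error relative to the count is smallest for the most deeply counted genes.

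From these counts edgeR 4.0.16 (R 4.3.3) was run with filterByExpr, TMM scaling and a quasi-likelihood test of 3A over Control without a covariate, adjusted by Benjamini-Hochberg over 13704 genes. Alternatives were other scalings, filters, limma-voom (limma 3.58.1), DESeq2 1.42.0, a replicate block, the mitochondrial share as a covariate and each library left out. The analysis code was tested on simulated data. The genes and the lists were chosen with earlier results of these data known. Related genes were named by list, up to 4 called genes each by smallest p, and close relatives of the 10 genes or of those called whatever their result. Usp7, Rbbp4, Epop, Bmi1 and the Merkel cell markers were added after their values were seen. The result of 1 gene counted in these lists is not reported here. Same-group libraries differed beyond sampling noise (chi-square per degree of freedom at least 15.7), so none was counted as a duplicate.

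Reads shared with other genes could touch few of the 10: the largest overlap of exons was 3.60% of the length of Suz12, with Gm26563 on the opposite strand, which had 55 counts over all libraries. Lengths were merged exons of GENCODE M21 on GRCm38, and promoter windows were from RefSeq on GRCm38.p6.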

Additional observations from a re-analysis of the deposited data

How the results depend on the processing

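With all 6 libraries edgeR called 2044 genes and none of the 9 tested methylation and PRC2 genes. The gene count was 716 at an adjusted p under 0.01, 3565 with DESeq2, 288 with the replicate block, and 664 to 7441 with one library left out, the highest without Control 1. Of the 9 genes DESeq2 called 4, the fit with the mitochondrial share 2, and the fits with one library left out 0 to 4; the cause was not tested. Of 144 refitted fold changes of these genes, 141 kept their direction. Those that turned were Dnmt3a (0.035) and Ezh1 (0.057) without Control 1 and Tet3 (0.116) with the mitochondrial share. With one library left out, Dnmt3a ranged over -0.439 to 0.035 and Ezh1 over -0.533 to 0.057, and the calls numbered 0 to 11 among methylation partners and readers, 0 to 5 among other PRC2 subunits, 0 to 10 among PRC1 subunits, 0 to 10 among Polycomb opponents, 3 to 10 among Polycomb targets, 1 to 2 among germline genes and 1 to 11 among S phase genes. The 7441 genes called without Control 1 included all 2044 called with 6 libraries. Same-numbered libraries deviated in opposite directions (r from -0.66 to -0.37), so the numbers were not taken as pairs; with the replicate block none of the 9 genes was called and Dnmt1 had a log2 fold change of 0.64. Tet1, with at most 7 counts in a library, was too thinly counted for any comparison.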
